A study of Mus musculus with 2 samples.

Results

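The alpha-2-macroglobulin family of the mouse was measured as chromatin accessibility in a stroke experiment. Its 4 members, A2m, Pzp, Mug1 and Mug2, were taken by name from 21911 protein-coding genes, and for each one the DNA fragments over the gene body plus 2 kb upstream were counted. A2m and its relatives were chosen by the measured level of A2m, known beforehand to differ between the libraries in astrocytes, so the values below are descriptions and carry no test. The 2 scATAC-seq libraries came from wild-type male C57BL/6J mice, 8 to 12 weeks old. One library was made from the ipsilateral hemispheres of 4 brains pooled 48 h after middle cerebral artery occlusion for 1 h and reperfusion (MCAO/R), and the other from 4 pooled whole brains harvested 48 h after sham surgery, in each case without olfactory bulb and cerebellum. Nuclei were isolated from flash-frozen tissue. With 1 library per condition there was no replicate, and all intervals below are 95% intervals that cover counting error only. Stroke and the sampling of 1 hemisphere cannot be told apart in this design.

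Alpha-2-macroglobulins are large secreted protease inhibitors. A protease that cuts their bait region sets off a change of shape that closes the inhibitor around it, and the complex is then taken up through the receptor Lrp1. They also bind cytokines and growth factors. In the mouse, the plasma alpha-2-macroglobulin is the product of Pzp, also named pregnancy zone protein, A2m encodes a related protein of the same family, and Mug1 and Mug2 encode the murinoglobulins, single-chain inhibitors of blood plasma. The liver is the main source of these proteins in blood, and in the rat alpha-2-macroglobulin is a strong acute-phase protein.

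On GRCm38 (mm10), the genes lie in 2 stretches of chromosome 6. A2m spans chr6:121635376-121679227 on the plus strand, Mug1 spans chr6:121838541-121889057 and Mug2 spans chr6:122006761-122085965, both also on the plus strand. Pzp lies at chr6:128483567-128526720 on the minus strand. The longest annotated transcript of A2m begins at position 121636228, inside the annotated gene, because a shorter transcript sets the outer boundary. A start window of 500 bases on either side of the start of the longest transcript is used below next to the full interval.

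Parts of Mug1 and Mug2 are found again elsewhere on chromosome 6, which limits what short reads can show of them. The 250 bases before the RefSeq start of Mug1 (chr6:121838291-121838540) and of Mug2 (chr6:122006548-122006797), both on GRCm38.p6, are shown to make this visible, with the longest run of bases that both share in capitals. The RefSeq start of Mug2 lies downstream of the GENCODE start given above, so the last bases of its stretch lie inside the gene as GENCODE draws it.
Mug1: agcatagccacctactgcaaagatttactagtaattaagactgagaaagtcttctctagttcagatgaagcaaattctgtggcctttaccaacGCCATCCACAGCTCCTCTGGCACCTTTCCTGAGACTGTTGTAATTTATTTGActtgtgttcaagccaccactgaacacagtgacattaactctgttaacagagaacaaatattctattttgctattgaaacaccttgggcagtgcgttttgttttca
Mug2: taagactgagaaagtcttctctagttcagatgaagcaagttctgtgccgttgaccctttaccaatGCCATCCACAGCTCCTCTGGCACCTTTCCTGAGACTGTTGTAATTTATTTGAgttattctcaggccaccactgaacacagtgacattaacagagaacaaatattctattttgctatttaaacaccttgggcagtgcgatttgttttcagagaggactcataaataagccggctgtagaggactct
The shared run is 52 bases long, and over 222 aligned positions 88.7% were identical. Of all stretches of 50 bases in the interval of Mug2, 46.4% were found more than once on chromosome 6, against 16.3% for Mug1, 9.64% for A2m and 2.84% for Pzp. All 952 such stretches in the start window of Mug2 were found again at chr6:122175516-122176516, outside any protein-coding gene. No fragment was recorded in that window in either library, and the cause of this was not tested. Pairs of low mapping quality are kept apart from the fragments, so the opening of the Mug2 start could not be measured. The start window of A2m had no stretch of 50 bases that was found more than once on chromosome 6. Other chromosomes were not searched.

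The libraries held 76959104 fragments (sham) and 96465679 fragments (stroke). Barcodes called as cells numbered 6979 and 8740, of which 6817 and 5054 had over 20% of their fragments in peaks and are called nuclei here. The remaining 162 sham and 3686 stroke barcodes at or below 20% are described separately. Median percentages in peaks of the nuclei were 38.8% in sham and 33.2% in stroke, so that more of the stroke fragments lay outside peaks. Counts in peaks come from the table of each library, and the study's methods describe a shared peak set only for the merged data. The peaks behind these percentages may thus differ between the libraries. The same barcode sequence was called in both libraries 66 times. Nuclei were given to 9 classes by lists of marker genes that hold no member of the family, and 442 sham and 568 stroke nuclei were gated as astrocytes. All 24 astrocyte markers were at least 1.5-fold higher in them than in the other gated classes, and Aqp4 was among their 10 leading genes, which the gate itself favours since it used these markers. The score of 91 sham and 75 stroke nuclei lay within 0.1 of the astrocyte gate. OPC markers came next in astrocyte-gated nuclei, with a median score of 0.18 in sham and 0.17 in stroke against 1.68 and 1.49 for their own markers. The gate left 60.9% of sham and 57.3% of stroke nuclei without a class.

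A2m was more accessible in astrocyte-gated nuclei of the stroke library. Its level there was 10.1 CPM (fragments per 1000000 fragments of the same nuclei, 7.27 to 13.6) in sham and 32.6 CPM (27.9 to 37.9) in stroke. The intervals do not overlap, and the ratio of stroke to sham was 3.24 (2.30 to 4.65). These levels rest on 42 fragments in 29 of 442 sham nuclei and 171 fragments in 114 of 568 stroke nuclei, with at most 5 fragments in any one of them. Of the 18650 genes with at least 10 fragments in astrocyte-gated nuclei of both libraries together, 3.94% were at least 2-fold higher in stroke and 2.08% were at least 2-fold lower. A2m was the only member past 2-fold, and 1.14% of the tested genes had a higher ratio.

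Most of that difference lay at the start of the gene. Within 500 bases of the start, astrocyte-gated nuclei had 14 fragments in sham (3.36 CPM, 1.84 to 5.64) and 95 in stroke (18.1 CPM, 14.7 to 22.2). The stroke level was thus 5.39 times the sham level (3.06 to 10.2). This window was chosen after seeing the data. The promoter interval planned instead, from 2 kb upstream to 500 bases past the outer gene boundary, leaves out most of it and gave 1.99 (0.84 to 5.22), on 8 sham and 20 stroke fragments. In start windows of all genes, 3.77% of 13559 were at least 2-fold higher in stroke, and 0.538% had a higher ratio than A2m. When each fragment was put into the 1-kb window that holds its midpoint, 93 of the 171 stroke fragments (54.4%, 46.6% to 62.0%) and 14 of the 42 sham fragments (33.3%, 19.6% to 49.5%) fell into the window at the start. Neither of these shares includes the region farther upstream. Across the gene body past the start window, the level per kb was 0.12 CPM in sham and 0.32 CPM in stroke, both under the 0.37 CPM per kb that an even spread of fragments over chromosomes would give. The ratio in the gene body was 2.60 (1.59 to 4.41).

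**Figure D1:**
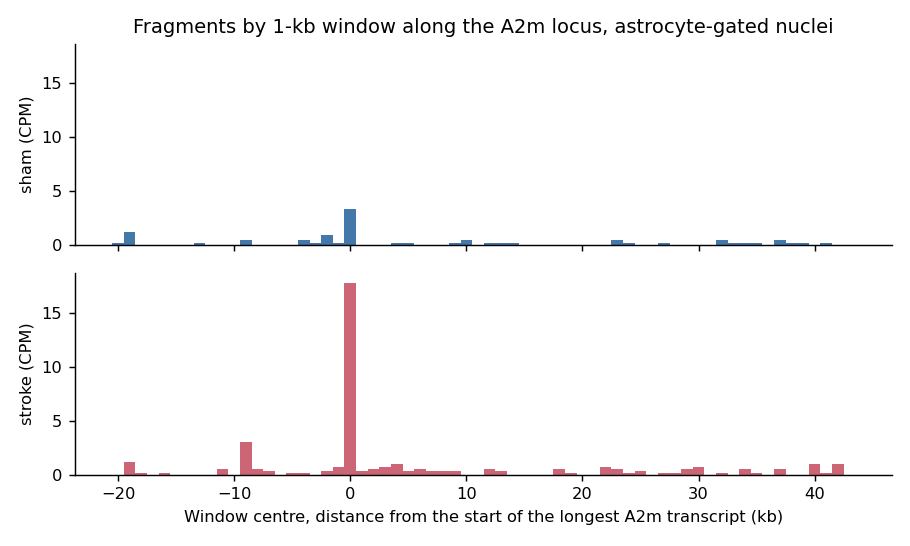
Fragments per 1-kb window along the A2m locus in astrocyte-gated nuclei, as CPM (vertical axis) against the distance in kb of the window's centre from the start of the longest transcript (horizontal axis), for sham (top) and stroke (bottom). Each bar is 1 window and has no error bar. The window at 0 holds 14 sham and 93 stroke fragments, and the window at -9 kb holds 2 and 16.

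A second window stood out upstream in the stroke library. The kb centred 9 kb before the start held 2 fragments in sham and 16 in stroke, whereas the 18 other windows more than 1.5 kb upstream held at most 5 in sham and 6 in stroke. It was picked for its stroke count, and 17.3% of 135644 autosomal windows with at least 10 fragments were at least 2-fold higher in stroke astrocytes, so nothing is read from its ratio of 6.36 (1.495 to 57.0). The 300 bases in it with the most cut sites of stroke astrocytes lie at chr6:121627391-121627690 (GRCm38, plus strand, outside any protein-coding gene). They are printed because they held all 16 stroke fragments, with each copy of their most frequent run of 8 bases in capitals.
Upstream region: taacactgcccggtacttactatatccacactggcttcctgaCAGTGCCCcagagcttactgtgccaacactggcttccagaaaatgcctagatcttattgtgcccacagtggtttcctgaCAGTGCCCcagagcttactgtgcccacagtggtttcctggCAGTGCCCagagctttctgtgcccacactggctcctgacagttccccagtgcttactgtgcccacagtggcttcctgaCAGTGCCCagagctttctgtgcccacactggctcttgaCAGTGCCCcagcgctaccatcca
The region is a tandem repeat: CAGTGCCC occurs 5 times, and 55.6% of bases equal the base 39 positions further on, against a median of 26.9% over shifts of 10 to 100 bases. None of its 251 stretches of 50 bases was found elsewhere on chromosome 6. In barcodes at or below 20%, these 300 bases held 0 sham and 2 stroke fragments, and the whole kb held 0 and 12 (0.34 CPM in stroke). In nuclei outside the astrocyte gate, the kb held 8 sham and 8 stroke fragments (0.12 and 0.17 CPM). The kb was picked for its count in stroke astrocytes, so nothing is read from their higher level of 3.05 CPM either. The letters TTCNNNGAA (the site bound by STAT factors), TGANTCA (AP-1) and TTGCNNAA (C/EBP) were searched on both strands and were absent from it and from the 300-base promoters of Mug1, Mug2 and Pzp. The start of A2m was not searched. These letters occur in 8.33%, 7.79% and 10.8% of 32544 RefSeq promoters of 300 bases.

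Nuclei outside the astrocyte gate gave another picture of the start of A2m. In all of them together, the start window held 78 sham fragments (1.13 CPM) and 62 stroke fragments (1.30 CPM), a ratio of 1.16 (0.82 to 1.64). This interval and that of the astrocyte-gated nuclei do not overlap. A2m was chosen for its difference in astrocytes and the window after seeing the data, so a larger astrocyte ratio was favoured beforehand. Ependymal and choroid plexus nuclei, 90 in sham and 16 in stroke, gave 11 of the 78 sham and 1 of the 62 stroke fragments. Astrocyte-gated nuclei had 2.99 times the start level of other nuclei in sham (1.56 to 5.31) and 13.9 times in stroke (9.99 to 19.5). Over the full interval, as planned, the values were 3.05 in sham (2.14 to 4.25) and 5.58 in stroke (4.59 to 6.78). In the gene body of the other nuclei, the ratio of stroke to sham was 2.15 (1.72 to 2.69), and its interval overlaps that of the astrocytes.

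The levels of A2m were then read by class. In sham, ependymal and choroid plexus nuclei had the highest level, 16.6 CPM (8.83 to 28.3), and 11 of their 13 fragments lay in the start window, at 14.0 CPM (7.003 to 25.1). Mural and VLMC nuclei had 11.2 CPM (1.36 to 40.4) from 2 fragments, and astrocytes followed with 10.1 CPM. The intervals of these 3 classes overlap over the full gene interval. In the start window alone, astrocytes had 0.24 times the level of ependymal and choroid plexus nuclei (0.10 to 0.58). Glutamatergic neurons had 3.50 CPM (2.48 to 4.81) and GABAergic neurons 3.06 CPM (2.17 to 4.205), both below astrocytes. Oligodendrocytes, OPCs and myeloid nuclei had 1 or 2 fragments each in sham, and endothelial nuclei had 0, which allows up to 11.9 CPM.

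In stroke, astrocytes had the highest value, 32.6 CPM. Oligodendrocytes followed with 14.8 CPM (9.58 to 21.9) from 25 fragments, of which 3 lay in the start window. Myeloid nuclei, 238 in stroke against 22 in sham, had 11.4 CPM (8.28 to 15.3) from 44 fragments, 11 of them in the start window, and 1 nucleus held 8 of the 44. OPCs had 10.7 CPM (5.15 to 19.7) from 10 fragments, of which 4 lay in the start window. The intervals of these 3 classes overlap, and all lie below that of astrocytes. Per kb, oligodendrocytes, myeloid nuclei and OPCs were at 0.32, 0.25 and 0.23 CPM, values under the even spread of 0.37 CPM. In the start window they were at 1.78, 2.85 and 4.29 CPM, with intervals that overlap. GABAergic neurons with 4.10 CPM (2.63 to 6.10) and glutamatergic neurons with 2.54 CPM (1.10 to 5.00) had the lowest values of the gated classes, and their ratios of stroke to sham were 1.34 (0.77 to 2.29) and 0.72 (0.29 to 1.58). The median score of glutamatergic neurons for their own markers was 0.39 in sham and 0.37 in stroke, also just over the gate of 0.3. Only 16 ependymal and choroid plexus nuclei were gated in stroke, with a median score of 0.37 for their own markers, just over the gate of 0.3, against 0.98 in sham. They had 12.95 CPM (1.57 to 46.8) from 2 A2m fragments, an interval that reaches past that of astrocytes, so their place in the stroke order is not known, and the ratio there has an interval from 0.09 to 3.45. Ratios for oligodendrocytes of 3.93 (0.98 to 34.3) and OPCs of 3.24 (0.69 to 30.4) rest on 2 sham fragments each.

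**Figure D2:**
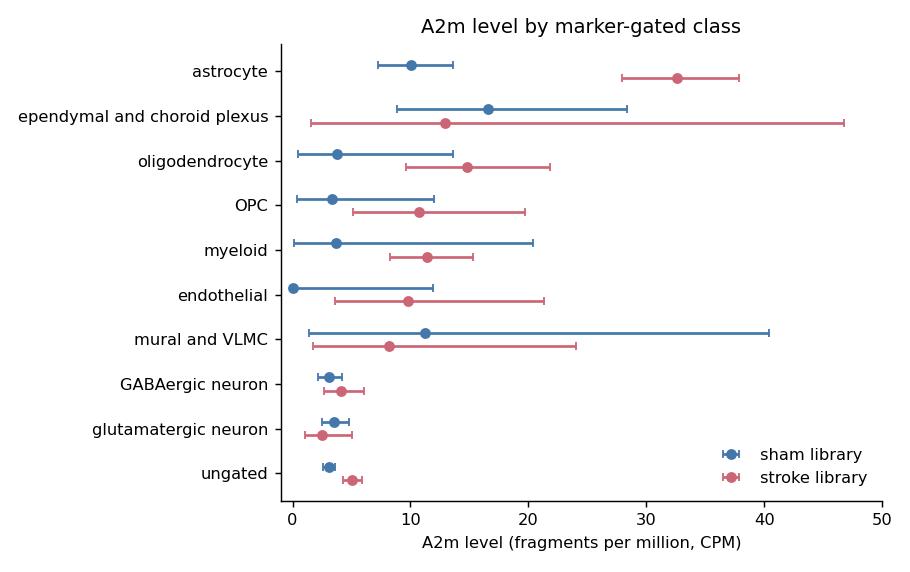
A2m level in CPM (horizontal axis) by marker-gated class (vertical axis) in the sham and stroke libraries. Points are levels and bars are exact Poisson 95% intervals. In stroke, the astrocyte point at 32.6 CPM lies above every other point, though the bar of ependymal and choroid plexus nuclei reaches past it, and the neuronal classes lie between 2.54 and 4.10 CPM in both libraries.

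The quality of the nuclei was set beside the astrocyte result. Astrocyte-gated nuclei had a median of 54.0% of fragments in peaks in sham and 50.9% in stroke, and medians of 7039 and 8165 fragments. Among nuclei over 40%, A2m was at 11.2 CPM in 383 sham nuclei and 38.4 CPM in 431 stroke nuclei, a ratio of 3.43 (2.33 to 5.16). From 30% to 40%, the ratio was 3.50 (1.502 to 9.48) on 7 and 29 fragments. From 20% to 30% there were 1 sham and 15 stroke fragments, with a ratio of 2.21 (0.34 to 92.9). The part of nucleus quality in the A2m ratio was not tested beyond these bands. Myeloid markers, summed over 27 genes, were at 487 CPM in sham and 536 CPM in stroke astrocyte-gated nuclei, against 1471 and 1633 CPM in myeloid nuclei; 1 of the 27 was at 0 in sham and none in stroke. Ependymal and choroid plexus markers, summed over 16 genes with none at 0, were at 184 CPM in sham and 237 CPM in stroke, against 825 CPM in sham and 479 CPM in stroke nuclei of that class. The part of these other cells in the A2m level was not tested.

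In astrocyte-gated nuclei, the other members had lower levels than A2m in both libraries, with overlapping intervals for Pzp in sham. Pzp was at 6.0005 CPM (3.88 to 8.86) in sham and 4.197 CPM (2.63 to 6.35) in stroke astrocytes, from 25 and 22 fragments. Mug1 was at 2.88 CPM (1.49 to 5.03) in sham and 4.39 CPM (2.78 to 6.58) in stroke, from 12 and 23 fragments. Mug2 was at 3.60 CPM (2.02 to 5.94) and 4.197 CPM (2.63 to 6.35), from 15 and 22 fragments. For each of these genes the intervals of the libraries overlap. The ratios of stroke to sham were 0.70 (0.38 to 1.29) for Pzp, 1.52 (0.73 to 3.36) for Mug1 and 1.17 (0.58 to 2.42) for Mug2, and the interval of Pzp does not reach that of A2m.

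Few fragments lay at their starts. In astrocyte-gated nuclei, start windows held 1 sham and 2 stroke fragments for Pzp, and 1 sham and 0 stroke fragments for Mug1. Over all nuclei, the start window of Pzp held 6 of 572 sham and 7 of 499 stroke fragments, and that of Mug1 held 4 of 120 and 6 of 218. For A2m it held 92 of 271 and 157 of 449. Nearly all fragments of Pzp thus lay outside its start window. The annotated gene Gm10069 overlaps its gene body, and fragments there cannot be assigned to either gene.

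Over all nuclei, every member was higher in stroke. A2m went from 3.69 CPM (3.26 to 4.15) in sham to 8.50 CPM (7.74 to 9.33) in stroke, Mug1 from 1.63 CPM (1.35 to 1.95) to 4.13 CPM (3.60 to 4.72), Mug2 from 2.37 CPM (2.03 to 2.75) to 3.96 CPM (3.44 to 4.53), and Pzp from 7.78 CPM (7.16 to 8.45) to 9.45 CPM (8.64 to 10.3). The ratios were 2.31 for A2m (1.98 to 2.69), 2.53 for Mug1 (2.01 to 3.19), 1.67 for Mug2 (1.36 to 2.06) and 1.21 for Pzp (1.07 to 1.37). Thus 2 of the 4 members were past 2-fold, where 4.99% of 21244 genes were at least 2-fold higher and 0.0377% at least 2-fold lower. With a filter at 30% in peaks, the intervals of Pzp (1.14, 0.98 to 1.32) and Mug2 (1.16, 0.87 to 1.53) include 1. The intervals of A2m (2.42, 2.02 to 2.90) and Mug1 (2.16, 1.63 to 2.88) do not. Per kb, all 4 members lay under the even spread of 0.37 CPM. Levels in sham and stroke were 0.08 and 0.19 CPM for A2m and 0.17 and 0.21 CPM for Pzp. For Mug1 they were 0.03 and 0.08 CPM, and for Mug2 0.03 and 0.05 CPM. Outside its start window, A2m held 179 sham and 292 stroke fragments, a ratio of 2.27 (1.88 to 2.75). The share of fragments outside peaks moved in the same direction, and astrocyte-gated nuclei made up 6.48% of sham and 11.2% of stroke nuclei. The part of either in the ratios of the 4 members was not tested.

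Among the classes, Pzp was at 8.48 CPM (6.83 to 10.4) in sham and 8.56 CPM (5.64 to 12.5) in stroke glutamatergic neurons, and at 5.80 CPM (4.54 to 7.31) and 5.12 CPM (3.46 to 7.31) in GABAergic neurons. In stroke, Pzp reached 19.6 CPM (10.1 to 34.3) in endothelial nuclei from 12 fragments, 4 of them in 1 nucleus. Mug2 reached 17.2 CPM (11.5 to 24.7) in stroke oligodendrocytes from 29 fragments in 18 nuclei, 6 of them in 1 nucleus, against 7.53 CPM (2.05 to 19.3) from 4 fragments in sham. Its intervals in the libraries overlap there too.

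Barcodes at or below 20% in peaks held fragments of all 4 genes. In stroke, their levels were 16.2 CPM for A2m (14.9 to 17.6), 18.9 CPM for Pzp (17.5 to 20.4), 20.9 CPM for Mug1 (19.4 to 22.5) and 20.1 CPM for Mug2 (18.6 to 21.6). Per kb these were 0.35, 0.42, 0.40 and 0.25 CPM, next to 0.37 CPM for an even spread. The value of Mug2 (0.23 to 0.27), the member with the largest share of repeated sequence, lay below those of the other members and below the even spread. In sham, where the 162 barcodes held 16 to 22 fragments per gene, the levels were 12.7 CPM for A2m, 16.5 CPM for Pzp, 13.5 CPM for Mug1 and 11.99 CPM for Mug2, or 0.28, 0.37, 0.26 and 0.15 CPM per kb.

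Over the full interval, A2m in stroke was 1.91 times as high at or below 20% as above it (1.68 to 2.16), and in sham 3.45 times (1.98 to 5.63). In the start window the order turned: stroke barcodes at or below 20% held 35 fragments, 0.99 CPM, against 157 fragments and 2.97 CPM in nuclei, a ratio of 0.33 (0.22 to 0.48). Fragments of at most 100 bases, which are too short to span a nucleosome, made up 37.1% of those 35 (21.5% to 55.1%), and 53.7% of the 95 in the start window of stroke astrocytes (43.2% to 64.0%). These intervals overlap. Just inside the threshold, in the 708 stroke barcodes with 20% to 25% in peaks, A2m was at 11.0 CPM, Pzp at 10.4 CPM, Mug1 at 7.98 CPM and Mug2 at 8.51 CPM. Just outside it, in the 482 with 15% to 20%, they were at 13.5 CPM, 14.6 CPM, 16.3 CPM and 9.23 CPM.

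**Figure D3:**
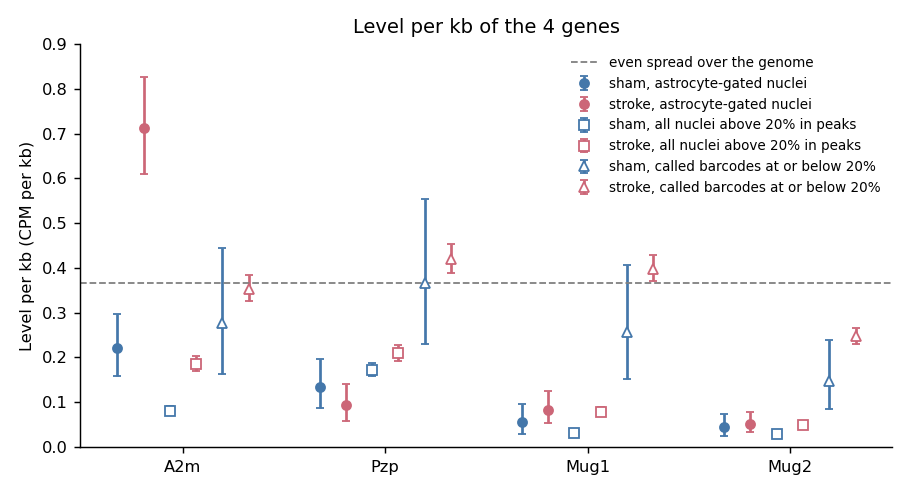
Level per kb of A2m, Pzp, Mug1 and Mug2 (CPM per kb, vertical axis) in astrocyte-gated nuclei, all nuclei above 20% in peaks, and called barcodes at or below 20%, by library. Points are levels, bars exact Poisson 95% intervals, and the dashed line an even spread over the genome (0.37 CPM per kb). A2m in stroke astrocytes is the only point in nuclei above the line, and in stroke barcodes at or below 20% the members lie between 0.25 and 0.42 CPM per kb, with A2m and Mug2 below the line and only the interval of A2m reaching it.

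Other genes of the pathway were read in the same astrocyte-gated nuclei. The list, chosen with earlier results of these data known, held 67 genes besides the members, of which 65 were matched and 63 had at least 10 fragments. Of these, 12 were at least 2-fold higher in stroke and 1 was at least 2-fold lower, where 3.94% and 2.08% of all genes tested were. Their median log2 ratio was 0.13 against -0.05 over all genes tested.

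In the superfamily that shares the fold of the alpha-2-macroglobulins, Cd109, a membrane-bound member, went from 13.4 to 36.1 CPM, a ratio of 2.68 (1.98 to 3.68). Its start window held 9 sham and 24 stroke fragments. A2ml1, the neighbour of Pzp, was at 6.72 CPM in sham and 3.05 CPM in stroke, a ratio of 0.45 (0.23 to 0.87), and was the listed gene that was past 2-fold lower. The complement components C4b and C3, which carry the same thioester chemistry, had log2 ratios of 0.79 and 0.61, and Hc, the gene of complement C5, had -0.30.

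None of the 6 genes for receptors and their chaperones was past 2-fold. Lrp1, the receptor that clears alpha-2-macroglobulin complexes, was at 228 CPM in sham and 220 CPM in stroke, a log2 ratio of -0.05. Lrp2 came closest, with a log2 ratio of 0.96, while Lrpap1, a chaperone of these receptors, had -0.54, Vldlr -0.49 and Hspa5 -0.21.

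The proteases also had none of 16 past 2-fold. Their median log2 ratio was 0.34, and the largest values were 0.89 for Adamts5 and 0.67 for Adamts1, both secreted enzymes that cut proteoglycans, 0.72 for the lysosomal protease Ctsb, and 0.67 for the matrix metalloprotease Mmp3. Mmp9 had -0.26.

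Among other protease inhibitors, 4 of 14 were at least 2-fold higher, where 3.94% of all genes tested were. Serpina3n, a secreted serpin widely used as a marker of reactive astrocytes, had the largest ratio of the list, from 4.32 to 23.7 CPM (ratio 5.48, 3.33 to 9.54), and its start window held 10 sham and 64 stroke fragments. Tfpi, the inhibitor of the tissue factor pathway, went from 2.64 to 8.39 CPM (ratio 3.18, 1.62 to 6.83), with 0 and 1 fragments in the start window. Timp1, an inhibitor of matrix metalloproteases, went from 3.36 to 6.87 CPM (ratio 2.04, 1.08 to 4.10). Timp2, Timp3 and Timp4 had log2 ratios from -0.10 to 0.11.

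Of 10 cytokines and growth factors known to bind alpha-2-macroglobulin, 3 were at least 2-fold higher, where 3.94% of all genes tested were. Fgf2 went from 24.7 to 67.3 CPM (ratio 2.72, 2.18 to 3.43), but its start window held 22 fragments in sham and 27 in stroke, so that the added fragments lay outside it. Il1b had 3 sham and 11 stroke fragments (ratio 2.91, 0.77 to 16.3). The 3 Tgfb genes had log2 ratios from -0.30 to -0.0045.

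In interleukin 6 family signalling, the route by which acute-phase genes are switched on in the liver, 4 of 12 genes were at least 2-fold higher. The share over all genes tested was 3.94%. Osmr, the receptor subunit for oncostatin M, went from 14.2 to 43.5 CPM (ratio 3.07, 2.30 to 4.16), and Socs3, the feedback inhibitor of the pathway, from 34.3 to 73.3 CPM (ratio 2.13, 1.76 to 2.60), with 102 sham and 274 stroke fragments in its start window. Il6ra had a ratio of 2.11 (1.63 to 2.76), with 28 sham and 45 stroke fragments in its start window (ratio 1.28). Osm rests on 4 sham and 13 stroke fragments (ratio 2.58, 0.80 to 10.9). The shared signalling subunit Il6st and the transcription factor Stat3 had log2 ratios of -0.03 and -0.04.

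**Figure D4:**
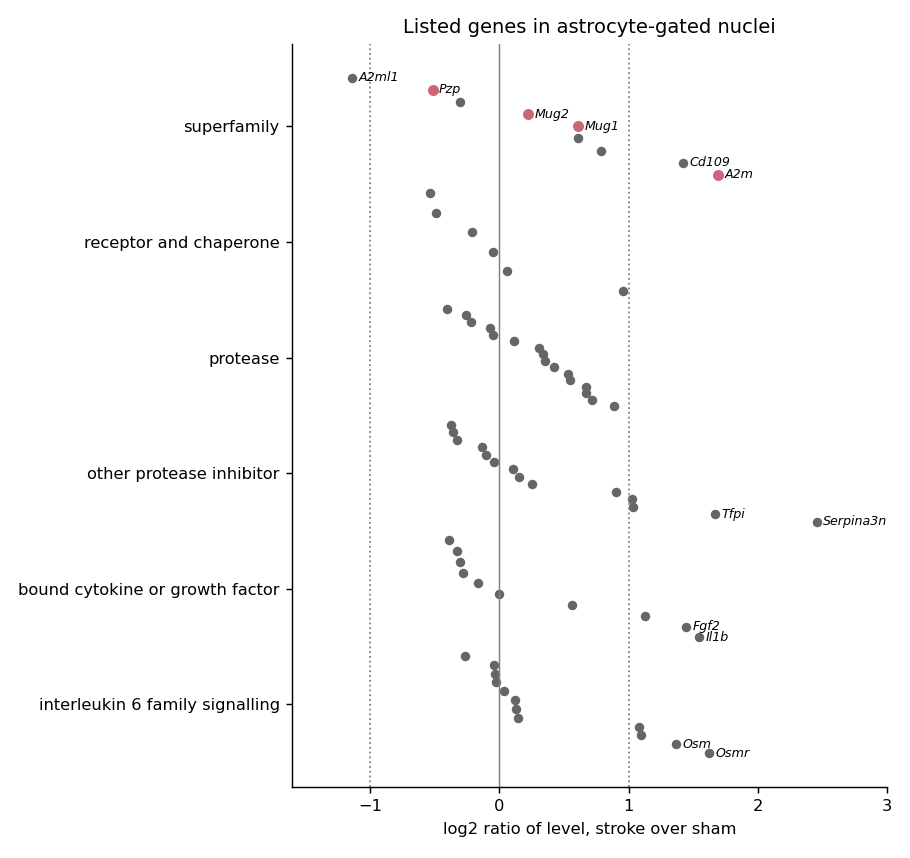
Log2 ratio of level, stroke over sham, in astrocyte-gated nuclei (horizontal axis) for the listed genes with at least 10 fragments, by group (vertical axis, with genes spread within a group for visibility). Each point is 1 gene without error bar, red points are A2m, Pzp, Mug1 and Mug2, names are given for these and for genes with a log2 ratio beyond 1.2 or under -1, and dotted lines mark 2-fold. Of the grey points, 12 lie at or beyond the right line and 1 beyond the left line.

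The ratio of A2m was higher than that of each gene around it, though no test of the difference was made. A2m was chosen for its difference in astrocytes, so a ratio above those of its neighbours was favoured beforehand. Of the 9 other protein-coding genes within 500 kb, the ratios in astrocyte-gated nuclei ran from 0.73 to 2.33 with a median of 1.17. Gm7298, between A2m and Mug1 and annotated as a pseudogene by RefSeq, was the only one past 2-fold, with 15 sham and 44 stroke fragments (ratio 2.33, 1.27 to 4.51), of which 0 and 1 lay in its start window. Over all genes tested, 3.94% were at least 2-fold higher. Usp18, an interferon-induced gene, had 1.89 (1.23 to 2.95), Slc6a13 1.54 (0.97 to 2.47), Tuba8 0.99, Slc6a12 0.95, Pex26 0.86 and Iqsec3 0.73. The intervals of Gm7298, Usp18, Slc6a13, Mug1 and Mug2 overlap that of A2m. Around Pzp, the 20 other genes ran from 0.43 to 1.87 with a median of 0.79. Of them, 3 were at least 2-fold lower, where 2.08% of all genes tested were. These were A2ml1 and the natural killer cell receptor genes Klrb1 and Klrb1c. The latter pair rests on 6 and 7 stroke fragments, and both intervals (0.14 to 1.45 and 0.14 to 1.15) include 1.

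Over the 16 combinations of class and library with at least 50 nuclei, the log2(CPM + 1) levels most like those of A2m, among 8287 genes, were those of Hs3st3b1 (Pearson r = 0.82), Nqo2 (0.81), Vmn2r71 (0.81), Kif4 (0.80) and Smim9 (0.79). These points share 2 libraries and differ in depth, and low counts in small classes enter them. In astrocyte-gated nuclei Hs3st3b1 was at 54.0 CPM in sham and 80.9 CPM in stroke, and Vmn2r71 at 5.28 and 5.34 CPM. Among the family, r with A2m was 0.66 for Mug2, 0.35 for Mug1 and -0.05 for Pzp.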

How the data were processed

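Per the labels, reads were processed with Cell Ranger ATAC 2.1.0 on mm10. The authors deposited, for each library, a fragment list and a table of counts per barcode, without normalization; pairs of low mapping quality are tallied apart in it. Fragments overlapping each protein-coding gene of GENCODE M21 plus 2 kb upstream were counted in called barcodes and divided by all fragments of the same barcodes (CPM).

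Nuclei were embedded by latent semantic indexing of 5 kb bins, without the member loci (components 2 to 10). Each was given the class whose markers, pooled with its 20 nearest neighbours, scored over 0.3 with a lead of 0.15. Gates from the odd and the even markers of each list gave the same class to 99.3% and 98.9% of nuclei also gated by the full lists. Gating each nucleus on its own fragments, without pooling, gave the same class to 79.8% of 2104 nuclei gated both ways, and 694 of the 1010 astrocyte-gated nuclei were astrocytes in both. No doublet caller was run, and the study's methods name none for these libraries. The 4 genes, the lists and the gate were chosen with earlier results of these data known, and the gate after marker distributions had been seen.

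Levels have exact Poisson intervals and ratios exact conditional binomial ones, both at 95%; no test was possible with 1 library per condition. Python 3.11.15, scipy 1.17.1 and Biopython 1.88 were used, tested on simulated data. Besides the members, the genes named were listed genes past 2-fold, or the 4 with the largest absolute log2 ratio in a group without any, genes within 500 kb, and the 5 most like A2m; other listed genes, such as Lrp1 and Stat3, were named after their values were seen. Some listed genes that entered the counts are not reported here by name. BC048546 and Cpamd8 were not matched. Alternatives changed the interval, the scaling, the filters and the gate.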

Additional observations from a re-analysis of the deposited data

Results flagged for a closer look

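Barcodes that were not called as cells enter no comparison above, and their fragments gave a higher level in stroke than in sham for each of the 4 genes. The share over all genes was not computed for these barcodes, so nothing particular to the family is read from this. A2ml1 and Gm7298 were also higher there, with ratios of 3.89 (2.06 to 8.28) and 6.13 (3.05 to 14.4). They held 2146756 fragments in sham and 8272764 in stroke. The ratio of stroke to sham was 2.68 for A2m (1.58 to 4.91), on 15 sham and 155 stroke fragments. It was 2.05 for Pzp (1.25 to 3.55), on 18 and 142 fragments, 4.13 for Mug1 (2.25 to 8.42), on 11 and 175, and 5.61 for Mug2 (2.79 to 13.2), on 8 and 173. In stroke, the levels per kb were 0.41 CPM for A2m, 0.38 CPM for Pzp, 0.40 CPM for Mug1 and 0.26 CPM for Mug2, next to 0.37 CPM for an even spread. In sham they were 0.15, 0.19, 0.098 and 0.046 CPM in the same order. In the start window of A2m these barcodes held 4 sham and 19 stroke fragments, a ratio of 1.23 (0.41 to 4.98).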

How the results depend on the processing

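No paired analysis was possible because stroke and sham were 1 library each. Counted over the start window, an alternative chosen after seeing the data, the ratio of A2m between stroke and sham astrocytes was 5.39, and astrocytes stood 13.9 times above other stroke nuclei. The planned full interval gave 3.24 and 5.58 (4.59 to 6.78) for these, and 3.05 for sham astrocytes over other nuclei. The alternative of 2 kb upstream to 500 bases past the outer gene boundary, which leaves out most of the start of the longest transcript, gave 1.99 in astrocytes (0.84 to 5.22), 1.79 over all nuclei, and 4.44 for sham astrocytes over other nuclei. Scaling to fragments in peaks gave 2.71 for A2m over all nuclei and 1.43 for Pzp, and 4.17 for stroke astrocytes over other nuclei, where scaling to TSS fragments gave 4.28. Filters at 10% and 30% in peaks gave 4.399 and 7.36 for the latter. In the other alternatives, the astrocyte ratio of A2m stayed between 3.11 and 4.32, the last with each nucleus gated on its own fragments, also chosen after seeing the data. TSS scaling moved the median log2 ratio of all genes by 0.12.

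Barcodes at or below the threshold had 0.33 times the A2m level of nuclei in the stroke start window, the one result with an interval clear of 1 that turned. With the interval from 2 kb upstream to 500 bases past the boundary it was 1.43, with peak scaling 6.80 in stroke and 11.3 in sham, with TSS scaling 5.14 and 8.07, at 30% 1.56 and 1.52, and at 10% 5.48 in sham (2.34 to 10.9, on 8 fragments). Over all nuclei, Mug1 was 3.62 and Mug2 2.35 at 10%, and at 30% Mug2 was 1.16 (0.87 to 1.53) and Pzp 1.14 (0.98 to 1.32). Pzp was 1.62 over all nuclei and 1.59 in astrocytes in the start window, and 1.59 in astrocytes in the planned promoter interval, on at most 7 fragments per library; Mug2 had no fragment in the start window, and Mug1 in astrocytes had 1 sham and 0 stroke fragments there, so that no fold is given. The planned interval gave none for these either, since a library had no fragment in it. The share of genes past 2-fold higher and lower in astrocytes was 6.40% and 3.75% with no minimum, 2.06% and 0.928% with a minimum of 30, and 9.64% and 7.38% at 1.5-fold. In 500-base windows, the fullest window held 16.7% of sham and 43.3% of stroke A2m fragments. By construction, fewer bases or fragments enter some of these, and more genes or fragments enter with no minimum and over all nuclei at 10%. Also by construction, more genes pass at 1.5-fold. Barcodes at or below the threshold are defined by few fragments in peaks, so scaling to these raises their level by construction as well. Otherwise the cause was not tested. The low counts of sham oligodendrocytes, OPCs and myeloid nuclei limit every ratio for those classes.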
